A study of Homo sapiens with 7 samples.

Results

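The 9 genes described here encode transcription factors that mark or set the identity of atrial, ventricular and pacemaker heart muscle cells: NR2F1, NR2F2, IRX4, HEY1, HEY2, TBX3, TBX18, SHOX2 and ISL1. They were taken by gene name from a deposited expression table of 60234 genes, and each name matched 1 row. The cells were cardiomyocytes grown from WTC-11, an established human induced pluripotent stem cell line, so every library shares 1 genetic background. After 35 days of maturation the cultures received an oligonucleotide made to base-pair with a chosen RNA (an antisense oligonucleotide, or ASO) at 2 uM for 96 h without a carrier. The control group received a scrambled ASO (3 libraries) and the other group an ASO against MYH7B (4 libraries), and Poly-A RNA was sequenced. The study's title describes the MYH7B transcript as a regulatory long noncoding RNA of the human heart. The comparison of the groups shows whether the identity factors differed once that transcript was lowered. The labels do not say whether the libraries of a group came from separate differentiations, so p-values measure the spread between these libraries, which may be technical.

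As background, a beating heart muscle cell carries a chamber identity that is held in place by a small number of DNA-binding proteins. NR2F1 and NR2F2 (COUP-TFI and COUP-TFII) are orphan nuclear receptors that act downstream of retinoic acid and favour atrial genes. IRX4, an Iroquois homeobox protein, and HEY2, a basic helix-loop-helix repressor downstream of Notch, favour the ventricular state, while HEY1 is the atrial relative of HEY2. TBX3 represses working-muscle genes in the conduction system, and TBX18 and SHOX2 act in the sinus node, where SHOX2 restrains NKX2-5. ISL1 marks second heart field progenitors and is kept on in the sinus node. TBX18 is also a gene of the epicardium and NR2F2 of venous endothelium and mesenchyme, so neither is restricted to heart muscle.

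The values are TPM, a level that corrects for transcript length and is relative to all transcripts of a library, and they hold no record of sequencing depth. The column of MYH7B ASO replicate 1 is filled in a gene order other than that of its rows. With the sorted gene identifiers of GENCODE release 29 its correlation with the other libraries across genes went from 0.408 to 0.955. Results are given for the 6 other libraries, and the reordered replicate 1 is set beside them. In that library 17.2% of TPM lay in mitochondrially encoded genes, against 27.4% to 33.6% in the others, and 14.4% in the noncoding RNAs RN7SL1 and RN7SL2, against 0.901% to 6.17%. MYH7B itself had 23.0, 36.5 and 25.1 TPM with the scrambled ASO and 9.30, 5.65 and 6.31 TPM in MYH7B ASO replicates 2 to 4 (log2 fold change -1.85, limma adjusted p = 0.0109). It had 1.29 TPM in the reordered replicate 1, and with that library included the fold change was -2.30 and missed the threshold (limma adjusted p = 0.0525), as it did without MYH7B ASO replicate 4 (0.0618) and with no minimum level (0.0779). In bulk RNA, fewer cells of a type and less RNA per cell cannot be told apart. Of 10 cardiomyocyte markers none was called by limma, with 7 fitted values below 0. Their median log2 fold change was -0.36, beside -0.04 for the tested genes together. Without any overlap of libraries, 5 of the markers were lower with the MYH7B ASO, as were 14.1% of tested genes. In the same way 1 marker, the troponin gene TNNI1, was higher, as were 7.11% of tested genes. TNNT2, the cardiac troponin T gene, lay at 933 to 1324 TPM in the 6 libraries, and RYR2, the calcium release channel gene, at 12.4 to 37.9 TPM. RYR2 was called lower in the authors' deposited table (-0.84, adjusted p-value 2.32e-04), the only call there among the 10 markers.

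All 9 factors were detected in every library, and each had a mean of at least 1 TPM, the level required for testing. With the scrambled ASO the order of the mean levels was TBX18 (97.3 TPM), NR2F2 (49.2 TPM), SHOX2 (42.0 TPM), HEY2 (27.7 TPM), HEY1 (15.6 TPM), ISL1 (9.88 TPM), IRX4 (7.53 TPM), TBX3 (5.81 TPM) and NR2F1 (2.86 TPM). The ranges of the 3 libraries overlapped between NR2F2 and SHOX2, SHOX2 and HEY2, ISL1 and IRX4, and IRX4 and TBX3, so those neighbours in the order are not separated beyond their spread. TBX18 lay above 91.2% to 95.4% of the genes that reached 1 TPM in a library, and NR2F1 above 13.7% to 33.6% of them. Factors of all 3 identities were thus present in the same cultures, with nodal TBX18 and SHOX2 and atrial NR2F2 at the top. With the MYH7B ASO the order of the 9 means was the same. HEY2 and HEY1, and HEY1 and ISL1, then overlapped, which they had not with the scrambled ASO, and so did TBX18 and NR2F2.

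**Figure D1:**
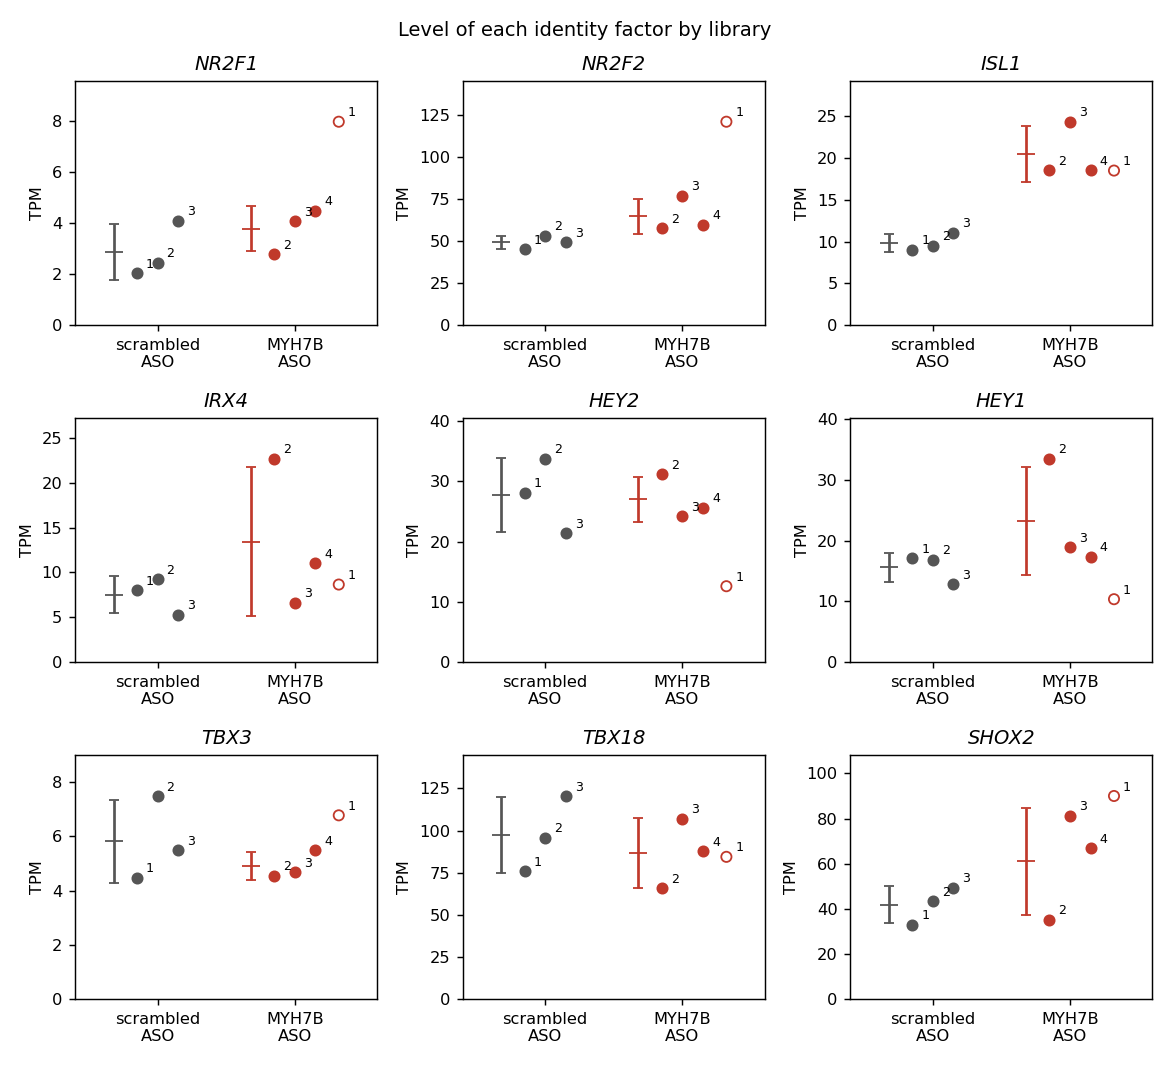
TPM (linear axis from 0) of each of the 9 factors in every library, with replicate numbers beside the points, grey for the scrambled ASO and red for the MYH7B ASO. Bars are the mean and SD of 3 libraries, and the open circle is the reordered MYH7B ASO replicate 1, which enters no mean. ISL1 lies between 9.03 and 11.1 TPM in the grey points and between 18.5 and 24.4 TPM in the red ones.

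Of the 9 factors, 1 passed the test across all genes, and it rose: ISL1. The test was limma on log2(TPM + 1), which understates the change of low genes, and a gene is called at a Benjamini-Hochberg adjusted p under 0.05 over all 15988 genes tested. Among all tested genes 1.66% were called, 0.181% higher and 1.48% lower. The groups did not overlap for 3 of the 9 factors, ISL1, NR2F2 and HEY1, each higher with the MYH7B ASO, and the same held for 7.11% of all tested genes (21.2% in either direction). With the reordered replicate 1 included, ISL1 and NR2F2 still did not overlap, as for 4.7% of genes. The fitted difference was above 0 for 6 of 9 factors and for 45.2% of all genes. The median log2 fold change of the 9 was 0.38, beside -0.04 over all tested genes. In the authors' deposited table, 2 of the 9 factors, ISL1 and NR2F2, were higher with an adjusted p-value under 0.05, against 3.02% of the genes with an adjusted p-value in the authors' deposited table (8.71% in either direction).

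**Figure D2:**
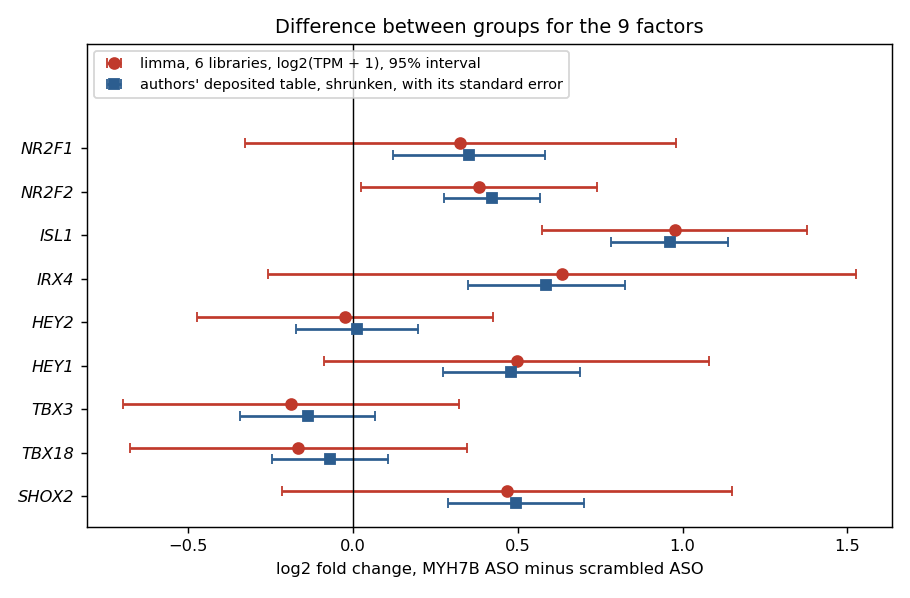
Log2 fold change (MYH7B ASO minus scrambled ASO) of the 9 factors. Red circles are limma estimates over 6 libraries with 95% intervals, and blue squares are the shrunken values of the authors' deposited table with their standard errors. The interval of ISL1 runs from 0.57 to 1.38, while those of NR2F1, IRX4, HEY2, HEY1, TBX3, TBX18 and SHOX2 include 0.

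ISL1 (ENSG00000016082.15) lies on the forward strand of chromosome 5, from 51383391 to 51394738 in GENCODE 29 on GRCh38. It is the factor the comparison turns on, so the bases before its start are shown. The stretch is chr5:51383198-51383390 on the forward strand, from the RefSeq promoter table on GRCh38.p14, and ends where the GENCODE gene begins. Capitals mark the letters CCAAT, the core of the CCAAT box of many promoters, searched on both strands (CCAAT and ATTGG) and picked after the sequence was seen.

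ISL1 upstream: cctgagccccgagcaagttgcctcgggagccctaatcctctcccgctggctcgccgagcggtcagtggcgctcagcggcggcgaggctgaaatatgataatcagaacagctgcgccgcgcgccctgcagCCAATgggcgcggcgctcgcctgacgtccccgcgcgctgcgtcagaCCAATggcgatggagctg

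The 2 matches begin at positions 51383327 and 51383373. Of the 35116 promoter windows of 300 bases in the table, 34.6% hold the letters at least once and 10.8% hold 2 or more copies. The ISL1 window of 300 bases is 66.7% G and C, against a median of 58.7% over all windows. A match is a description of the letters only.

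ISL1 had 9.03, 9.52 and 11.1 TPM in scrambled ASO replicates 1 to 3 and 18.6, 24.4 and 18.6 TPM in MYH7B ASO replicates 2 to 4. All libraries of the second group lay well above all of the first, and the reordered replicate 1 stood with them at 18.5 TPM. The mean was 9.88 ± 1.07 TPM with the scrambled ASO (SD, n = 3). It was 20.5 ± 3.34 TPM with the MYH7B ASO (SD, n = 3), which is 2.08 times as high. On the log2 scale ISL1 rose by 0.98 (SE 0.18, limma adjusted p = 0.0359). In the authors' deposited table ISL1 stood at 0.96 (adjusted p-value 5.07e-06). With the reordered replicate 1 included, the change was 0.94 (limma adjusted p = 0.0436), and 1.07% of genes were called in that fit, 0.107% higher.

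The size of the ISL1 difference was similar whichever library was left out, but the call was not kept. Without any 1 of the 6 libraries the log2 fold change ran from 0.85 to 1.06, and the limma adjusted p from 0.0649 (without scrambled ASO replicate 3) to 0.135 (without MYH7B ASO replicate 3). The call also ended where genes down to a mean of 0.1 TPM were tested (limma adjusted p = 0.0689), where no minimum was set (0.119), and without the intensity trend (0.0766). ISL1 is also a gene of neurons and of endoderm. The 10 neural markers summed to 22.5 to 28.3 TPM with the scrambled ASO and 16.9 to 26.6 TPM with the MYH7B ASO, with 70.2 TPM in the reordered replicate 1, and SOX10, SOX2, ELAVL4 and TFAP2A stayed under 0.5 TPM in all 6 libraries. STMN2, a neuronal tubulin-binding protein gene of that list, fell from 11.6, 9.63 and 9.50 TPM to 4.08, 2.19 and 1.13 TPM (log2 fold change -1.78, limma adjusted p = 0.0341). Of the list 2 genes were tested, and the other, the tubulin gene TUBB3, had a positive difference that did not pass (0.45, limma adjusted p = 0.511). TUBB3 had 8.34, 10.4 and 16.1 TPM and then 11.7, 22.4 and 14.8 TPM. In the reordered replicate 1 it made up 65.8 TPM of the neural sum. The 10 endoderm and epithelium markers summed to 1550 to 1763 TPM and 1694 to 2141 TPM, nearly all of it keratins KRT8 and KRT18, while FOXA2, SOX17, AFP and TTR were under 0.5 TPM. APOA1, an apolipoprotein gene of that list, had 4.03, 6.39 and 5.57 TPM and then 14.8, 12.6 and 9.37 TPM, with 14.5 TPM in replicate 1. It did not pass (log2 fold change 1.06, limma adjusted p = 0.0706), and it was called higher in the authors' deposited table (adjusted p-value 0.00103). CDH1, the E-cadherin gene of that list, went the other way, at 13.6, 14.0 and 16.0 TPM and then 4.48, 11.4 and 6.35 TPM. It had 23.9 TPM in replicate 1. CDH1 did not pass (log2 fold change -0.97, limma adjusted p = 0.158), and it was called lower in the authors' deposited table (adjusted p-value 0.0335). The part of these cells in the ISL1 result was not tested. The 10 pluripotency markers summed to 7.72 to 11.2 TPM and 6.43 to 9.71 TPM.

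The genes whose log2(TPM + 1) pattern was most like that of ISL1 over the 6 libraries, among all tested genes, were UBE2E3, a ubiquitin-conjugating enzyme gene, and TFPI2, a protease inhibitor gene. Their Pearson r values were 0.998 and 0.992, and 3 genes reached 0.99. These values describe 6 libraries whose points share the group difference. UBE2E3 had 76.4, 76.5 and 81.8 TPM and then 98.5, 112 and 99.2 TPM. In the reordered replicate 1, which the measure did not use, UBE2E3 was 65.8 TPM, below every scrambled ASO library. TFPI2 had 6.90, 8.83 and 9.63 TPM, then 16.8, 22.5 and 17.2 TPM, and 61.1 TPM in replicate 1.

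The other 3 nodal factors did not pass the test. SHOX2 (ENSG00000168779.19, chromosome 3, 158095954 to 158106503, reverse strand), the sinus node homeobox factor, had 33.0, 43.6 and 49.5 TPM with the scrambled ASO. It had 35.2, 81.2 and 66.8 TPM in MYH7B ASO replicates 2 to 4 and 90.04 TPM in the reordered replicate 1. Replicates 1, 3 and 4 lay above every scrambled ASO library and replicate 2 lay among them. Its log2 fold change was 0.47, with a 95% interval of -0.22 to 1.15 (limma adjusted p = 0.512). Without MYH7B ASO replicate 2 it was 0.82 (limma adjusted p = 0.197), and without replicate 3 it was 0.22. It stood at 0.49 in the authors' deposited table (adjusted p-value 0.123).

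TBX18 (ENSG00000112837.17, chromosome 6, 84687351 to 84764519, reverse strand), a T-box factor of the sinus node head and the epicardium, was the most abundant of the 9. It had 75.8, 95.7 and 120 TPM with the scrambled ASO and 65.8, 107 and 87.6 TPM with the MYH7B ASO, with 84.4 TPM in replicate 1. The groups overlapped, and the log2 fold change was -0.17 with a 95% interval of -0.68 to 0.35 (limma adjusted p = 0.770). The sign depended on 1 library, since the value was 0.02 without MYH7B ASO replicate 2. The 10 epicardial markers, WT1 and TCF21 among them, were all tested and none was called by limma. For 3 of them, TCF21, UPK1B and KRT19, the groups did not overlap and were higher with the MYH7B ASO, against 7.11% of all tested genes. Of the 10 fitted values 6 were below 0, with a median of -0.11, beside -0.04 over all tested genes. TCF21 (0.72, adjusted p-value 0.00270) and UPK1B (0.74, adjusted p-value 0.0285) were called higher in the authors' deposited table. The 10 summed to 663 to 831 TPM with the scrambled ASO and 759 to 893 TPM with the MYH7B ASO, mostly KRT19. Their part in the TBX18 result was not tested.

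TBX3 (ENSG00000135111.16, chromosome 12, 114670254 to 114684164, reverse strand), the repressor of the working-muscle programme in the conduction system, stayed low. It had 4.47, 7.48 and 5.49 TPM with the scrambled ASO and 4.54, 4.67 and 5.48 TPM with the MYH7B ASO, with 6.77 TPM in replicate 1. The second group lay inside the range of the first, and the log2 fold change was -0.19 with a 95% interval of -0.70 to 0.32 (limma adjusted p = 0.733).

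The atrial factors had positive differences that did not pass over all genes. NR2F2 (ENSG00000185551.15, chromosome 15, 96325938 to 96340263, forward strand) had 45.3, 53.1 and 49.1 TPM with the scrambled ASO and 57.7, 76.8 and 59.8 TPM with the MYH7B ASO. The groups did not overlap, and the reordered replicate 1 was highest of all at 121 TPM. The mean was 49.2 ± 3.92 TPM (SD, n = 3) and 64.7 ± 10.5 TPM (SD, n = 3). That is a log2 fold change of 0.38, with a 95% interval of 0.02 to 0.74 (limma adjusted p = 0.296). NR2F2 was called higher in the authors' deposited table, at 0.42 on the log2 scale (adjusted p-value 0.0475). With replicate 1 included the limma estimate was 0.61 and its SE 0.25, against 0.16 without it (limma adjusted p = 0.343).

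NR2F1 (ENSG00000175745.14, chromosome 5, 93583224 to 93594615, forward strand), its close relative, was the lowest of the 9. It had 2.04, 2.45 and 4.09 TPM with the scrambled ASO and 2.78, 4.07 and 4.48 TPM with the MYH7B ASO. The groups overlapped, and replicate 1 again stood highest at 7.96 TPM. The estimate on the log2 scale was 0.33 with a 95% interval of -0.33 to 0.98 (limma adjusted p = 0.630). NR2F2 exceeded NR2F1 in all 6 libraries, by a ratio of 18.6 ± 5.74 (SD, n = 3) with the scrambled ASO and 17.7 ± 3.84 (SD, n = 3) with the MYH7B ASO.

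Each of these receptors has a long antisense gene at its start. NR2F2-AS1 had 12.8, 5.67 and 4.31 TPM with the scrambled ASO and 2.71, 2.92 and 2.64 TPM with the MYH7B ASO, so its groups did not overlap. It did not pass, at a log2 fold change of -1.07 (SE 0.34, limma adjusted p = 0.192). NR2F1-AS1 had 3.36, 2.21 and 6.77 TPM and then 1.51, 2.38 and 2.36 TPM (log2 fold change -0.64, limma adjusted p = 0.445). Whether the counting used strand is not given in the sources used here, so reads in the overlap of a gene and its antisense partner cannot be told apart. Of the distinct words of 31 bases in NR2F1 transcripts of GENCODE 29, 2.98% occur on the opposite strand of another gene's transcripts, nearly all in NR2F1-AS1. For NR2F2 transcripts that share was 0.0777%, so little of their sequence lies in such an overlap. For SHOX2 transcripts it was 2.59%, nearly all in RSRC1. On the same strand, the share found in transcripts of any other gene was 0% for HEY1, HEY2, TBX3 and TBX18 and 0.116% for SHOX2. It was 0.254% for NR2F1, 0.342% for NR2F2, 0.834% for ISL1 and 2.55% for IRX4. Reads of NR2F1 and NR2F2 are therefore largely distinct in sequence.

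Neither ventricular factor passed the test, nor did HEY1. IRX4 (ENSG00000113430.10, chromosome 5, 1877413 to 1887236, reverse strand) had 8.04, 9.25 and 5.29 TPM with the scrambled ASO. It had 22.7, 6.62 and 11.1 TPM in MYH7B ASO replicates 2 to 4 and 8.66 TPM in replicate 1. Replicate 2 alone was far above the scrambled ASO range, and replicate 3 lay inside it. The log2 fold change was 0.63 with a 95% interval of -0.26 to 1.53 (limma adjusted p = 0.494), and 0.20 without replicate 2. The antisense gene IRX4-AS1 was also highest in replicate 2, at 6.21 TPM, and at most 1.99 TPM in the other 5 libraries of the comparison.

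HEY2 (ENSG00000135547.9, chromosome 6, 125747664 to 125761269, forward strand) had 28.1, 33.7 and 21.4 TPM with the scrambled ASO and 31.1, 24.2 and 25.6 TPM with the MYH7B ASO. The groups covered the same range, with a log2 fold change of -0.02 and a 95% interval of -0.47 to 0.43 (limma adjusted p = 0.969). The reordered replicate 1 was lower than all of them, at 12.6 TPM. The sign of so small a difference turned positive under median-ratio scaling, quantile normalization and removal of mitochondrially encoded genes.

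HEY1 (ENSG00000164683.17, chromosome 8, 79764010 to 79767863, reverse strand) had 17.1, 16.9 and 12.9 TPM with the scrambled ASO and 33.5, 18.9 and 17.3 TPM in MYH7B ASO replicates 2 to 4. These groups did not overlap, by a margin of less than 1 TPM, and the reordered replicate 1 fell below all of them at 10.4 TPM. The log2 fold change was 0.50 with a 95% interval of -0.09 to 1.08 (limma adjusted p = 0.409), and 0.21 without replicate 2. HEY1 stood at 0.48 in the authors' deposited table (adjusted p-value 0.144). The ratio of HEY2 to HEY1 was 1.64, 1.99 and 1.67 with the scrambled ASO and 0.930, 1.28 and 1.48 with the MYH7B ASO, with 1.21 in replicate 1. All libraries of the second group lay below all of the first, and 3 libraries against 3 allow no exact permutation p under 0.1.

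MYH7B ASO replicate 2 set the spread of several factors, a pattern chosen after its values were seen. Among the 3 libraries of its group in the comparison it was highest for IRX4, HEY1 and HEY2 and lowest for NR2F1, NR2F2, SHOX2, TBX18 and TBX3. Any 1 of 3 libraries is the highest or lowest for many genes, and the share over all tested genes was not counted. For NR2F2 replicate 3 stood further from the other libraries (57.7, 76.8 and 59.8 TPM), and for TBX3 replicate 4 did (4.54, 4.67 and 5.48 TPM). It was also highest for HAND1, a ventricular progenitor factor, at 33.4 TPM against 13.7 and 14.9 TPM. NKX2-5, the early cardiac homeobox factor, was 210 TPM there against 117 and 104 TPM. MYL3, the ventricular essential light chain, was 977 TPM against 438 and 546 TPM, and BMP4, a growth factor of the nodal list, was 44.6 TPM against 95.03 and 86.6 TPM. ISL1 did not share this pattern, at 18.58 TPM in replicate 2 and 18.57 TPM in replicate 4.

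**Figure D3:**
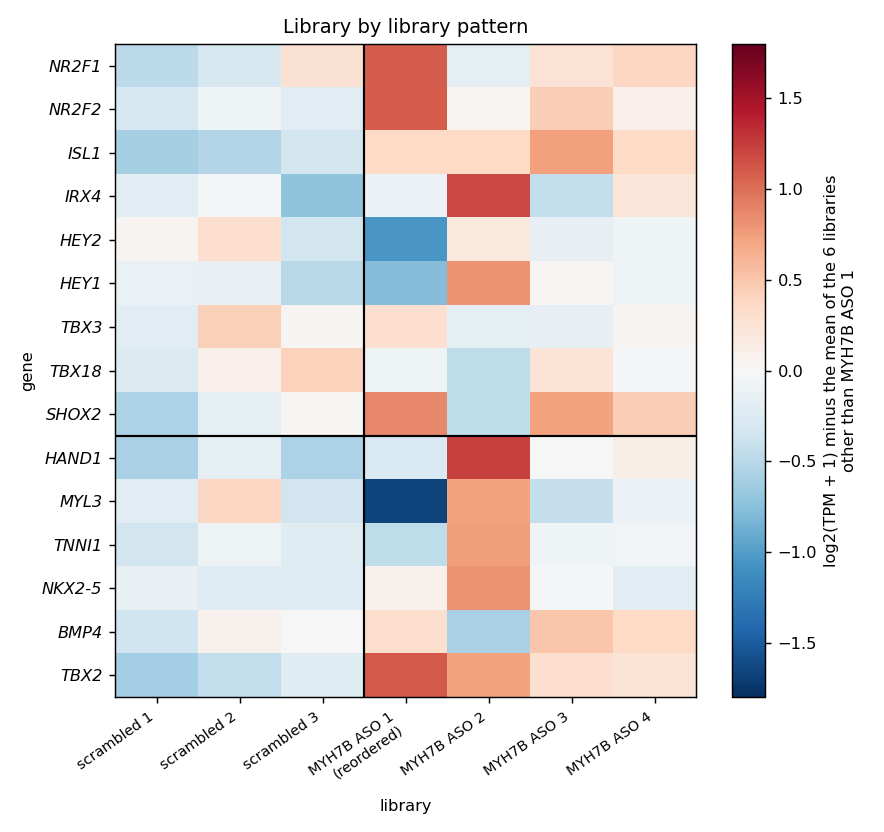
Level of the 9 factors (above the line) and of 6 genes chosen after their values were seen (below it) in each library, as log2(TPM + 1) minus the gene's mean over the 6 libraries of the comparison, red for above and blue for below. MYH7B ASO 2 is red for IRX4, HEY1, HAND1 and NKX2-5 and blue for SHOX2, TBX18 and BMP4, while ISL1 and TBX2 are red in all MYH7B ASO libraries.

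Genes of the atrial, ventricular and nodal programmes that these factors act on were counted list by list. Of 18 nodal genes, all tested, limma called none higher and 2 lower. The groups did not overlap for 1 that was higher, TBX2, whose values stand with the family relatives, and for 8 that were lower. Of these 18 genes, 1 was called higher (TBX2) and 6 lower in the authors' deposited table. One that fell was RGS6, a brake on muscarinic signalling in the pacemaker, with 8.62, 6.17 and 5.46 TPM and then 0.691, 1.34 and 0.690 TPM. Its log2 fold change was -2.02 (limma adjusted p = 0.0125), and it passed in 3 of the 6 fits that left out 1 library each. It did not pass without scrambled ASO replicate 1 (limma adjusted p = 0.0572) or MYH7B ASO replicate 2 (0.0510) or 4 (0.0645).

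HCN4, the main pacemaker channel gene, did not pass the test. It had 49.1, 71.1 and 57.4 TPM and then 64.03, 67.4 and 65.2 TPM, a log2 fold change of 0.16 with a 95% interval of -0.21 to 0.53 (limma adjusted p = 0.679). The median of the nodal list was -0.48, beside -0.04 over all tested genes, with 14 of 18 fitted values below 0. ISL1 was thus called higher and the 2 genes of the nodal list that passed in limma lower. Over all tested genes 236 of the 265 limma calls were lower, so the direction of those 2 calls is not particular to the nodal list.

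Of 18 atrial genes 17 were tested, and 2 fell by limma. MYL4, the atrial essential light chain, had 907, 953 and 1269 TPM with the scrambled ASO and 407, 393 and 329 TPM with the MYH7B ASO (log2 fold change -1.46, limma adjusted p = 0.00599). PAM, a peptide-amidating enzyme abundant in atrial granules, had 265, 279 and 267 TPM and then 155, 164 and 182 TPM (log2 fold change -0.70, limma adjusted p = 0.0297). The PAM call was lost when any 1 library was left out (limma adjusted p from 0.0661 to 0.113) and with replicate 1 included (0.119), median-ratio scaling (0.0651) or quantile normalization (0.0610). The median of the atrial list was -0.05, with groups that did not overlap for 2 higher and 5 lower genes (7.11% and 14.1% of all tested genes). Of the atrial list 2 genes were called higher and 2 lower in the authors' deposited table (3.02% of all genes higher, 8.71% in either direction). Of 18 ventricular genes 17 were tested, and 1 fell by limma. It was MYL2, the ventricular regulatory light chain, with 21.7, 16.7 and 17.95 TPM and then 5.74, 4.59 and 2.41 TPM (log2 fold change -1.96, limma adjusted p = 0.0121). The call ended without scrambled ASO replicate 1 (0.0556). The median of the ventricular list was -0.07, with groups that did not overlap for 3 higher and 3 lower genes, beside those same shares. For the ventricular list the authors' deposited table held 4 calls higher and 1 lower (again 3.02% of all genes higher, 8.71% in either direction).

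**Figure D4:**
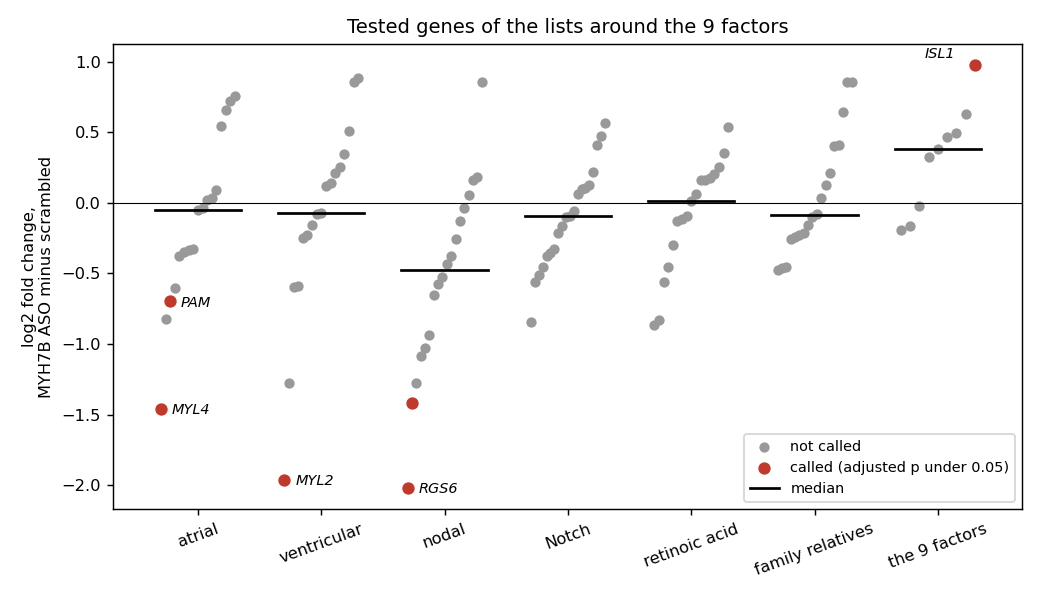
Log2 fold change (MYH7B ASO minus scrambled ASO) of every tested gene in 6 lists and of the 9 factors, sorted within each list. Red points were called by limma, with names for those described in the text, grey points were not, and black lines are medians. The nodal list has its median at -0.48, and the 9 factors have theirs at 0.38.

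Lists of the Notch pathway, which acts on HEY1 and HEY2, and the retinoic acid pathway, which acts on NR2F1 and NR2F2, gave no call in limma. Both lists also hold genes that respond to their pathway, such as HES1 and CYP26A1, so they are not limited to upstream genes. Of 26 Notch pathway genes, 20 were tested and none was called by limma, with a median log2 fold change of -0.10. The receptor gene NOTCH1 was called higher (0.59, adjusted p-value 0.0137) and the coactivator gene MAML2 lower (-0.81, adjusted p-value 6.42e-04) in the authors' deposited table. Limma gave NOTCH1 0.47 (limma adjusted p = 0.346) and MAML2 -0.85 (0.102). RBPJ, the DNA-binding partner of Notch, had 52.2, 68.7 and 42.2 TPM and then 50.2, 34.03 and 44.3 TPM. JAG1, the Notch ligand with the highest mean among those listed, had 27.8, 27.4 and 29.6 TPM and then 26.1, 38.8 and 29.5 TPM. Of 20 retinoic acid pathway genes, 17 were tested and none was called by limma, with a median of 0.02, while the authors' deposited table held 1 call, higher. ALDH1A2, the enzyme that makes retinoic acid in the embryonic heart, had 178, 146 and 175 TPM and then 102, 175 and 136 TPM.

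Among 42 relatives of the 9 factors by gene family, 18 were tested and none was called by limma, while 3 (TBX2, IRX3 and NR2F6) were called higher in the authors' deposited table. TBX2, the relative of TBX3 that also represses chamber genes, was picked out after its values were seen. It had 10.1, 11.5 and 13.6 TPM with the scrambled ASO and 27.1, 20.1 and 19.3 TPM with the MYH7B ASO, with 35.8 TPM in replicate 1, so the groups did not overlap. The difference of 0.86 on the log2 scale (SE 0.19) did not pass (limma adjusted p = 0.0764). It did pass where only genes at 5 TPM or more were tested (limma adjusted p = 0.0464), with median-ratio scaling (0.0352) and with quantile normalization (0.0350). TBX2 was also called in the authors' deposited table, at 0.89 (adjusted p-value 5.77e-07).

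Some markers of other cells moved with the groups and are set beside these results. The 10 fibroblast markers summed to 2953 to 5326 TPM with the scrambled ASO and 1398 to 2145 TPM with the MYH7B ASO. Most of it was COL1A1, COL1A2 and COL3A1 (means of 1667, 765 and 1099 TPM with the scrambled ASO). Limma called 2 of the 10 lower, LUM (log2 fold change -2.22, limma adjusted p = 0.0489) and COL1A2 (-1.38, limma adjusted p = 0.0343). PDGFRA went the other way, with 19.8, 27.8 and 23.5 TPM and then 41.1, 32.9 and 34.8 TPM (0.60, limma adjusted p = 0.152). The authors' deposited table called PDGFRA higher (adjusted p-value 0.00287) and 5 of the 10 lower. The 10 smooth muscle markers summed to 1040.1 to 1454.5 TPM and 622 to 836 TPM, and 1 fell, MYH11 (log2 fold change -2.41, limma adjusted p = 0.00599). In the reordered replicate 1 the fibroblast sum was 4228 TPM and the smooth muscle sum 1294 TPM, both inside the scrambled ASO range. With that library included neither LUM (limma adjusted p = 0.391) nor COL1A2 (0.207) passed. MYH11 still passed (log2 fold change -2.38, limma adjusted p = 0.0049). It had 13.4 TPM in that library, against 58.6, 74.2 and 77.6 TPM with the scrambled ASO. The 10 endothelial markers summed to 37.7 to 49.6 TPM and 37.4 to 57.3 TPM, and their defining genes PECAM1, CDH5 and VWF were at most 1.12 TPM. The 10 cardiomyocyte markers summed to 9589 to 10763 TPM and 8699.8 to 10713 TPM. The part of the fibroblast and smooth muscle difference in the levels of the 9 factors was not tested.

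Promoter windows of 300 bases were given in the RefSeq table for 7 of the 9 factors, with 11 starts in all. HEY1 and TBX3 had none. They were searched on both strands for TGGGAA (the core bound by RBPJ), CATTCC (TEAD factors), CACGTG (an E box) and AGGTCA (bound by nuclear receptors), and no window held more than 1 kind. ISL1 and NR2F1 held none of the 4. HEY2 held TGGGAA or its complement 2 times, and SHOX2 and TBX18 held it 1 time each, against 24.0% of all windows. IRX4 held CATTCC at 1 of its 3 starts (14.0% of all windows), and NR2F2 held CACGTG 2 times at 1 of its 2 starts (7.26%). AGGTCA was in none of the 11 windows and in 13.8% of all windows. These are matches of letters only, and a window without a match says nothing of the factor.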

How the data were processed

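Per the labels' protocols, RNA was extracted with Trizol and poly-A selected. The authors deposited TPM for all genes, with 7 library columns and no unused sample column. They also deposited a comparison table, which they named as shrunken. Per the file headers, it holds a normalized count averaged over libraries (a signal), a log2 fold change, its standard error, a test score and p-values. Per the submitters' processing notes, the build was GRCh38.p13 and DESeq2 was used. The aligner, the quantifier and the libraries entering the authors' deposited table are not given in the sources used here. Depth is unknown, so replicate spread is the only error.

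Columns were matched to samples by the description labels. The values of MYH7B ASO replicate 1 fill 58721 rows and leave 1513 empty. They were assigned in turn to the sorted identifiers of GENCODE 29, which placed 58072 genes; shifting that order by 1 position gave a correlation of 0.416. The other 6 libraries correlated at 0.959 to 0.979. This library was left out of the main comparison.

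A gene entered the test when its mean reached 1 TPM. Tests used limma 3.58.1 (lmFit, eBayes with an intensity trend) in R 4.3.3 on log2(TPM + 1), a pseudocount of 1, with no covariate. The method was tested on simulated data. Tables were made with pandas 2.3.3 and numpy 2.4.6 in Python 3.11.15, and plots with matplotlib 3.10.9. Named genes were the 9 factors, MYH7B, antisense partners, called list genes, cell type markers, and the 2 genes most like a called factor. The factors and lists were chosen with earlier results of these data known. Some genes of these lists are counted but not reported here by name. Coordinates are GENCODE 29 on GRCh38.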

Additional observations from a re-analysis of the deposited data

Results flagged for a closer look

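Of 10 measures examined over the 4 MYH7B ASO libraries, with the reordered replicate 1 included, 2 had a library far from the others. Chance flags about 1 measure in 20. ISL1 was 24.4 TPM in MYH7B ASO replicate 3, against 18.5, 18.6 and 18.6 TPM in the others, which lay unusually close together. Without replicate 3 the ISL1 log2 fold change was 0.85 (limma adjusted p = 0.135). The share of TPM in mitochondrially encoded genes was 17.2% in replicate 1, while replicates 2 to 4 had 31.2% to 33.6%.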

How the results depend on the processing

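Over 20 alternatives the ISL1 log2 fold change stayed between 0.77 and 1.08 and was called in 8. It was not called where genes down to 0.1 TPM were tested (limma adjusted p = 0.0689), with no minimum (0.119), both of which test more genes, or without the intensity trend (0.0766), so 0 of the 9 factors were called there. The genes called, 265 in the main comparison, numbered 170 with the reordered replicate 1, 135 and 40 with those lower minimums, and 150 without the trend. Quantile normalization called 55 higher and 202 lower, against 29 and 236. Leaving out 1 library at a time called 53 to 149 genes and 0 to 0 of the factors. The HEY2 difference, -0.02, reversed to 0.0304 with median-ratio scaling, 0.0326 with quantile normalization, 0.0013 without mitochondrially encoded genes and 0.0292 with the block by title number. Without 1 library it ran from -0.192 to 0.12, above 0 without scrambled ASO replicate 2 and MYH7B ASO replicates 3 or 4. The TBX18 difference ran from -0.332 to 0.0176, above 0 without MYH7B ASO replicate 2. The cause was not tested. No other factor changed sign, and none but ISL1 was called under any alternative.

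With a replicate block by title number, by description number, or by title number over 7 libraries, 0 genes and 0 factors were called by limma. Genes at an unadjusted p under 0.05 numbered 1718, 1096 and 1773. The ISL1 log2 fold change was 0.98 in all 3 (limma adjusted p = 0.372, 0.720 and 0.241). Same-numbered libraries had correlated deviations of 0.08 and 0.11 by title, -0.07 and -0.04 by description, and 0.02, 0.14 and 0.02 by title over 7 libraries. So few values do not settle whether the numbers pair the samples, and description numbers over 7 libraries were not examined. The main comparison used no pairing.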

Other observations

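SHOX2 and TBX18, which both act in the sinus node, were compared as a ratio within each library after their values were seen. The ratio of SHOX2 to TBX18 was 0.435, 0.455 and 0.411 with the scrambled ASO. With the MYH7B ASO it came to 0.536, 0.760 and 0.763 in replicates 2 to 4, and 1.07 in the reordered replicate 1. The groups did not overlap, although the groups overlapped for each gene alone. The ratio of ventricular IRX4 to atrial NR2F2 was 0.178, 0.174 and 0.108, then 0.393, 0.0862 and 0.185, with 0.0716 in replicate 1, so its groups overlapped. IRX3, a relative of IRX4, had 3.04, 3.50 and 2.74 TPM and then 7.81, 7.77 and 4.24 TPM, a log2 fold change of 0.86 (limma adjusted p = 0.166). It stood at 0.88 in the authors' deposited table (adjusted p-value 0.00113).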
